A study of Homo sapiens with 20 samples.

Results

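The genes described here are 45 genes of the endoplasmic reticulum (ER), the compartment in which secreted and membrane proteins are translocated, folded and checked. They were chosen by name, as sensors of unfolded protein, ER chaperones, disulfide isomerases, factors of ER-associated degradation, and subunits of the translocon and signal peptidase. All 45 names were found among the 58735 identifiers counted. Of these genes 44 passed the filter on low counts and were tested, and DERL3, a derlin of ER-associated degradation, did not, with 0 to 2.59 CPM per library. CPM is a gene's count over its library's scaled total, times 1000000, and it is not corrected for gene length, so levels are compared between libraries of 1 gene and not between genes.

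The study exposed AC16 cells to aerosol from an electronic cigarette or to filtered air in an air–liquid interface system, in which the cells' upper side faces the gas. AC16 is an established human cell line, made by fusing adult ventricular heart cells with a transformed fibroblast line, and it divides in culture. Messenger RNA libraries of 5 filtered air and 5 e-cigarette aerosol replicates were compared, and both groups were the same line grown in DMEM/F12 with serum. The labels call them biological replicates without naming separate cultures or days, so the spread between replicates may be partly technical, and the labels state neither composition, dose nor duration of the aerosol. Fewer cells of a kind and less RNA per cell cannot be told apart in such bulk libraries. Library totals over all genes ran from 65902331 to 88806394 counts in filtered air and from 60482726 to 72099157 after the aerosol. Of 13 cardiomyocyte markers, 7 had no count in any library, among them the troponin TNNT2 and the myosins MYH6, MYH7 and MYL2. A count of 0 allows at most 3 counts, or 0.0555 CPM in the library with the smallest scaled total, and this limit covers counting error only. The markers TTN and GATA4 were above 1 CPM in every library. The summed level of 8 fibroblast markers was 2514 to 3146 CPM in filtered air and 2244 to 2969 CPM after the aerosol. This sum mainly follows COL1A1, with means of 2208 and 1897 CPM. DCN, PDGFRA and LUM had means of 1.54, 2.07 and 5.79 CPM in filtered air. Most contractile markers behind the label cardiomyocyte were thus at or near 0.

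Unfolded protein in the ER is sensed by 3 membrane proteins: IRE1 (gene ERN1), ATF6 and PERK (gene EIF2AK3). IRE1 cuts an intron from XBP1 mRNA in the cytosol, and the spliced mRNA encodes an active transcription factor that induces genes of translocation, folding and degradation. ATF6 moves to the Golgi, where the proteases MBTPS1 and MBTPS2 release its active part, which induces chaperones and XBP1 itself. PERK phosphorylates the initiation factor eIF2 alpha, which slows translation and favours ATF4. Secretory and contractile cells of the heart depend on this system for matrix proteins, receptors and calcium handling. Gene counts do not separate spliced from unspliced XBP1 mRNA.

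XBP1 had the largest fall among the 44 genes. Of 19 tested genes that XBP1 is known to induce, 2 fell and 15 had values below 0. Below 0 lay 10155 of all 20166 genes tested and 5295 of the 9212 averaging 10 CPM or more. The other members that fell were the signal peptidase subunit SPCS2, the translocon subunit SEC61B, the chaperone-like CRELD2, the disulfide isomerase PDIA4 and the calcium-binding chaperone CALR. Thus 6 of 44 fell (13.6%) and none rose at a Benjamini-Hochberg adjusted p under 0.05 over all genes in edgeR's quasi-likelihood test. DESeq2 and limma-voom also gave 6 lower and 0 higher. Over all genes DESeq2 called 3.30% lower and 4.68% higher, and limma-voom 1.72% and 1.63%. Over all 20166 genes tested, 1.39% fell and 1.62% rose, 3.01% in all. Most of the 44 are well expressed, and among the 9212 genes averaging 10 CPM or more 2.85% fell and 1.93% rose, against 6 and 0 of the 42 members at that level. At an unadjusted p under 0.05, 14 of the 44 were lower and 1, SEC63, was higher. The shares over all genes tested were 9.48% lower and 8.78% higher, and 17.0% and 10.8% among genes averaging 10 CPM or more. In 9 of the 44 every aerosol library lay below every filtered air library (20.5%), and in none the reverse held. Groups separated in this way, with the aerosol lower, in 3.93% of all genes tested and in 7.00% of those averaging 10 CPM or more. The reverse held in 3.52 and 3.39% of them. The median log2 fold change was -0.10 over the 44 genes and -0.07 over the genes averaging 10 CPM or more. The median of the list, with the genes that passed included, thus lay near that of well-expressed genes. The shares lower at an unadjusted p under 0.05, and separated with the aerosol lower, were above those of well-expressed genes. These differences were not tested.

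**Figure D1:**
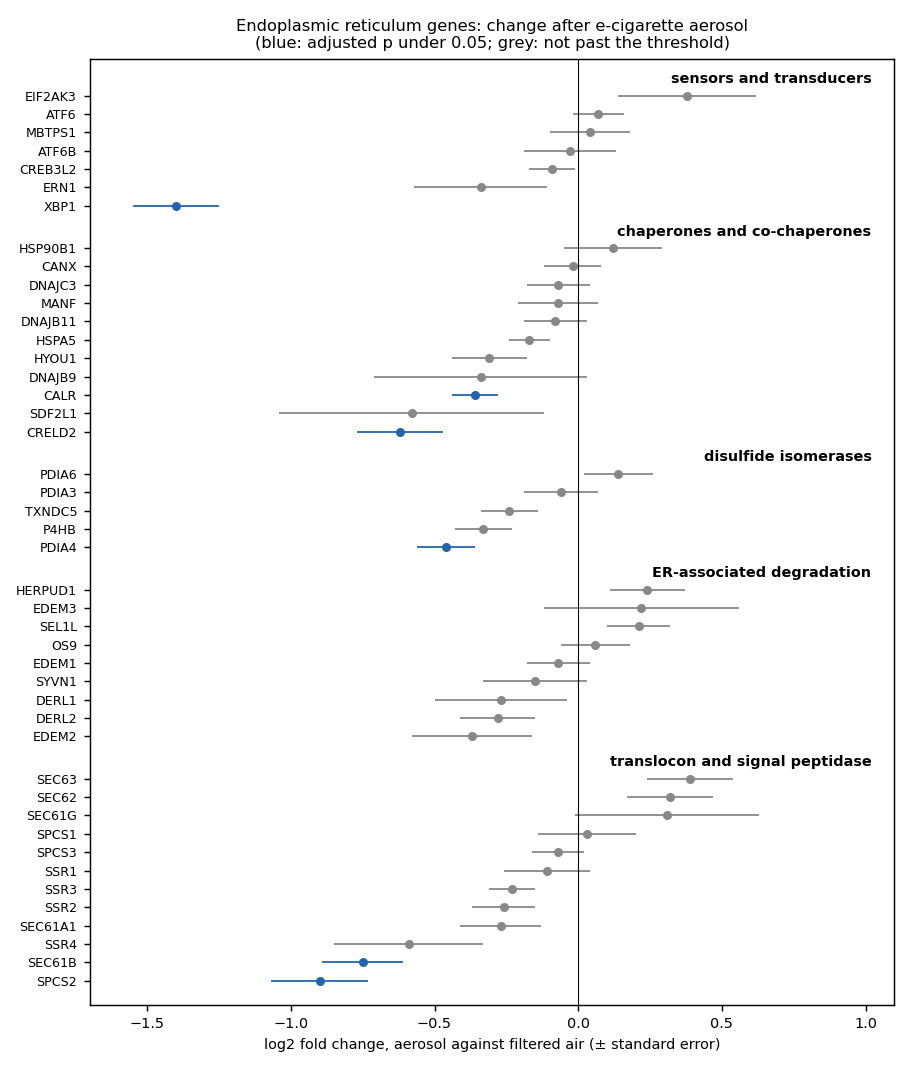
The log2 fold change (aerosol against filtered air) of each of the 44 tested genes is drawn as a point with its standard error, grouped by role (5 libraries per group). XBP1 lies at -1.40, apart from the others, and the 6 blue genes are those past the threshold, all on the lower side.

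XBP1 (GRCh38.p14, chromosome 22, 28794560 to 28800569) was at 52.4, 53.2, 55.1, 48.6 and 57.1 CPM in filtered air replicates 1 to 5. After the aerosol it was at 21.1, 18.5, 27.0, 17.5 and 17.0 CPM. The lowest filtered air library was thus well above the highest aerosol library, replicate 3, and no library was out of place. The mean went from 53.3 ± 3.18 to 20.2 ± 4.10 CPM (SD, n = 5 per group), or -1.40 ± 0.15 on the log2 scale (SE; edgeR adjusted p = 0.000887). This is 0.379 of the level in filtered air. The call held when any single library was left out (adjusted p of at most 0.00487), and without aerosol replicates 4 and 5 together the change was -1.27. No other RefSeq gene overlaps XBP1, and its copy XBP1P1 held 1.55% as many counts (0.605 CPM in filtered air and 0.640 after the aerosol).

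The XBP1 promoter holds an ER stress response element (ERSE), a sequence through which ATF6 is known to act, and it is shown because XBP1 is both a target of this pathway and its strongest change here. The window, from RefSeq of build GRCh38.p14, runs from 250 bases before to 50 bases after the transcription start at chr22:28800520-28800819 on the minus strand, written 5′ to 3′ with the ERSE in capitals, which lies 52 to 34 bases before the start.
XBP1: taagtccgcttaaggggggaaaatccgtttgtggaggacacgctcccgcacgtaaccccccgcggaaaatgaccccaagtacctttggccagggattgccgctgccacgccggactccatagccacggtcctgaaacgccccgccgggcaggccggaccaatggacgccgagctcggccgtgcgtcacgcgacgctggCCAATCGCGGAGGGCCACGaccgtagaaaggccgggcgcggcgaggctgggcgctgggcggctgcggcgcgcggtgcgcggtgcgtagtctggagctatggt

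None of the 3 sensors passed the threshold in edgeR. ERN1, the kinase and nuclease that splices XBP1 mRNA, was at 16.7, 17.6, 17.6, 15.5 and 13.4 CPM in filtered air and at 14.1, 15.4, 16.1, 11.7 and 6.37 CPM after the aerosol. The groups overlapped except for aerosol replicates 4 and 5, which were below all filtered air libraries, and the log2 fold change of -0.34 ± 0.23 did not pass (edgeR adjusted p = 0.492). Without these 2 libraries it was -0.09.

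ATF6, the membrane-bound transcription factor, was at 133, 125, 124, 115 and 136 CPM in filtered air and at 116, 131, 126, 148 and 142 CPM after the aerosol. Aerosol replicates 4 and 5 lay above every filtered air library and the other 3 within their range (log2 fold change 0.07 ± 0.09, edgeR adjusted p = 0.771). Its sign turned to -0.03 without aerosol replicates 4 and 5 and to -0.04 with scaling by library size alone.

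EIF2AK3, which encodes PERK, was at 32.0, 30.0, 45.4, 33.8 and 51.6 CPM in filtered air and at 35.7, 33.7, 43.2, 66.8 and 71.1 CPM after the aerosol. Aerosol replicates 4 and 5 lay above every other library, and the remaining 3 lay within the filtered air range. The log2 fold change was 0.38 ± 0.24 (edgeR adjusted p = 0.444) with all 10 libraries and -0.05 without those 2. The related factors ATF6B and CREB3L2, both cleaved in the Golgi like ATF6, were at -0.03 and -0.09, and their protease MBTPS1 was at 0.04. None of these 3 passed the threshold, and the sign of ATF6B turned to 0.17 without aerosol replicates 4 and 5.

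**Figure D2:**
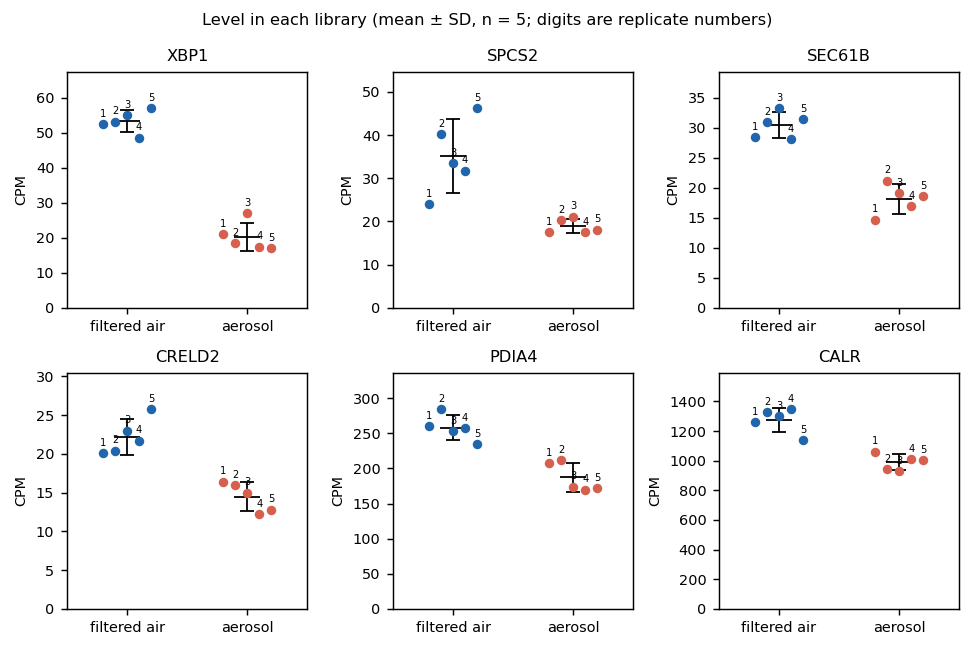
The level in CPM of each gene that fell is drawn for every library, filtered air in blue and aerosol in red, with replicate numbers, means and SD (n = 5 per group), on axes that start at 0. In all 6 panels every aerosol library lies below every filtered air library, and the gap is widest for XBP1 as a ratio, with 48.6 CPM in the lowest filtered air library and 27.0 CPM in the highest aerosol library.

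Chaperones lay mostly below their filtered air level (10 of 11), and 2 of 11 fell (18.2%), CALR and CRELD2. Over all genes tested 1.39% fell. Among those averaging 10 CPM or more 2.85% fell and 5295 of 9212 lay below 0. These differences were not tested. CALR encodes calreticulin, which binds calcium and helps glycoproteins to fold, and was at 1258, 1327, 1302, 1350 and 1139 CPM in filtered air. After the aerosol it was at 1062, 944, 929, 1013 and 1003 CPM. The groups did not overlap, and the lowest filtered air library, replicate 5, lay nearest to the aerosol libraries. The change was -0.36 ± 0.08 (edgeR adjusted p = 0.0262), but 5 of the 10 fits that left out a library lost the call, with an adjusted p of up to 0.0821 without filtered air replicate 4. When a trend on genomic span was taken out it was -0.15.

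CRELD2, an ER-resident factor that is induced by ER stress, was at 20.1, 20.4, 23.0, 21.7 and 25.8 CPM in filtered air. After the aerosol it was at 16.4, 16.0, 15.0, 12.2 and 12.8 CPM, below all filtered air libraries and lowest in replicates 4 and 5. Its change of -0.62 ± 0.15 passed narrowly (edgeR adjusted p = 0.0449) and was lost in 8 of the 10 fits without a library, with up to 0.122 without filtered air replicate 3. On GRCh38.p14 CALR lies on chromosome 19 from 12938609 to 12944489 and CRELD2 on chromosome 22 from 49918634 to 49927537.

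HSPA5 encodes BiP, the ER Hsp70 that holds the 3 sensors inactive, and was at 878, 895, 879, 852 and 934 CPM in filtered air and at 801, 759, 815, 725 and 837 CPM after the aerosol. The groups did not overlap, although the lowest filtered air library and the highest aerosol library were close together. The log2 fold change of -0.17 ± 0.07 did not pass (edgeR adjusted p = 0.223), and taking out the trend on span turned it to 0.04. HSP90B1, the ER Hsp90, ranged from 592 to 941 CPM in filtered air and from 576 to 1162 CPM after the aerosol, with its highest value in aerosol replicate 5. Its change was 0.12 with all libraries and -0.12 without aerosol replicates 4 and 5.

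The co-chaperones of BiP and the other folding factors were not past the threshold. HYOU1, a nucleotide exchange factor, was at -0.31, and the J-domain proteins DNAJB9, DNAJB11 and DNAJC3 were at -0.34, -0.08 and -0.07. DNAJB9 and SDF2L1, a partner of the J-domain protein DNAJB11, were low, with means of 6.66 and 2.87 CPM in filtered air, and their single libraries spread from 1.65 to 8.46 and from 0.518 to 3.68 CPM. The lectin chaperone CANX, the membrane-bound relative of calreticulin, was at -0.02, and the stress-induced secreted factor MANF at -0.07.

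The ERSE was searched for in the promoters of all members. The members include known ATF6 targets, and ATF6 acts through the ERSE, so its share among them is not independent of their choice. The motif searched was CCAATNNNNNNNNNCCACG on both strands, and it was found in 7 of the 41 members with a promoter window (17.1%), against 0.0916% of the 27305 genes in the RefSeq promoter table (25 genes). A shorter variant, ERSE-II (ATTGGNCCACG, both strands), was found in HYOU1, HERPUD1 and SDF2L1, none of which had an ERSE, against 0.0696% of all genes. Of the 7 members with an ERSE, XBP1, CALR and CRELD2 fell, while HSPA5, HSP90B1, CANX and PDIA6 were at -0.17, 0.12, -0.02 and 0.14. None of the 3 members with an ERSE-II passed. Of 10 further tested genes with an ERSE, none passed the edgeR threshold, with a median log2 fold change of 0.10. Of 11 further tested genes with an ERSE-II, 2 fell, GYS1 and RUVBL2, with a median of -0.17. Over all genes tested 1.39% fell and 1.62% rose. Hence the same element stood before genes that fell and genes that did not, and a match describes the letters only. The windows below let the 7 promoters be compared with the XBP1 window above; each is 80 bases, 5′ to 3′ on the gene's strand, with the ERSE in capitals, and in CALR, CRELD2 and the second HSP90B1 window the motif reads on the opposite strand.
CALR (chr19:12938359-12938438, plus strand, fell): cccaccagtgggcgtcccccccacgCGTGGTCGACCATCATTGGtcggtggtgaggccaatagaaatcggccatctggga
CRELD2 (chr22:49918523-49918602, plus strand, fell): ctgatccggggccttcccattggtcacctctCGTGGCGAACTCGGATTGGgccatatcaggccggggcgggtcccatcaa
HSPA5 (chr9:125241361-125241440, minus strand, not past the threshold): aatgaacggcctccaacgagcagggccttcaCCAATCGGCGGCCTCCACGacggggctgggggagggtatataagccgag
HSP90B1 (chr12:103930185-103930264, plus strand, not past the threshold): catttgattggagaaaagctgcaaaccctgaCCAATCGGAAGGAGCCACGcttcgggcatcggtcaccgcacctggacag
HSP90B1 (chr12:103930290-103930369, plus strand, not past the threshold): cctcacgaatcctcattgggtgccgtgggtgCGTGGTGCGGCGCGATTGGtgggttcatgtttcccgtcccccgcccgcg
CANX (chr5:179698747-179698826, plus strand, not past the threshold): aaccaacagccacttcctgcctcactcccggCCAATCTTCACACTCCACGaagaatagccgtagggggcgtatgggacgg
PDIA6 (chr2:10812823-10812902, minus strand, not past the threshold): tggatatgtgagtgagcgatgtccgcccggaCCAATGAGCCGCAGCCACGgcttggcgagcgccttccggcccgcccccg

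The last motif, the TGACGTG core of the unfolded protein response element bound by XBP1 and ATF6, was in the windows of 6 of the 41 members (14.6%), on either strand, and of 2.40% of all genes. These members were HYOU1, where it overlaps 1 of 2 ERSE-II matches, SEC61A1, SEC62, SSR3, SSR4 and TXNDC5. None of these 6 passed the threshold, and their median log2 fold change was -0.26. Of 389 further tested genes with this core, 11 fell and 6 rose, with a median of -0.09. Over all genes tested 1.39% fell and 1.62% rose. Among those averaging 10 CPM or more 2.85% fell and 1.93% rose, with a median of -0.07. The windows of PDIA4, SEC61B and SPCS2, which fell, held no exact match to the 3 motifs. Elements with altered letters or outside the windows were not searched for.

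Among 5 disulfide isomerases, PDIA4 fell (GRCh38.p14, chromosome 7, 149003051 to 149028505). It was at 260, 285, 253, 258 and 235 CPM in filtered air and at 208, 212, 174, 170 and 172 CPM after the aerosol. Every aerosol library was lower, with replicates 1 and 2 nearest to filtered air. The change was -0.46 ± 0.10 (edgeR adjusted p = 0.0241), and it was lost in 6 of the 10 fits without a library, with up to 0.0762 without filtered air replicate 2. P4HB, which also serves as a subunit of prolyl hydroxylase, went from 546 ± 71.3 to 435 ± 38.8 CPM (n = 5 per group) with groups that did not overlap, but did not pass (-0.33 ± 0.10, edgeR adjusted p = 0.110). TXNDC5, PDIA3 and PDIA6 were at -0.24, -0.06 and 0.14. PDIA6 turned to -0.01 without aerosol replicates 4 and 5.

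Of the genes of ER-associated degradation none was past the threshold, where 1.39% of all genes tested fell and 1.62% rose. The 9 tested genes did not pass in edgeR, DESeq2 or limma-voom, and at an unadjusted p under 0.05 1 was lower, DERL2, a derlin of the retrotranslocation channel (-0.28). HERPUD1, an adaptor induced by ER stress, was higher in 4 of 5 aerosol libraries than in any filtered air library, at 48.1, 42.0, 41.0, 42.3 and 35.4 CPM against 36.7, 37.1, 31.9, 31.2 and 40.1 CPM. Its change of 0.24 ± 0.13 did not pass (edgeR adjusted p = 0.344).

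SEL1L and SYVN1, the scaffold and the ubiquitin ligase of the main degradation complex, were at 0.21 and -0.15. The mannosidase-like factors EDEM1, EDEM2 and EDEM3 were at -0.07, -0.37 and 0.22, the lectin OS9 at 0.06 and the derlin DERL1 at -0.27. EDEM3 was spread already in filtered air, from 26.1 to 83.7 CPM, and DERL1 was at 58.5 CPM in aerosol replicate 5 against 99.3 to 175 CPM in the other aerosol libraries.

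In the translocon and signal peptidase SEC61B and SPCS2 fell, and SEC62 and SEC63 were at positive values that did not pass. SEC61B (GRCh38.p14, chromosome 9, 99222282 to 99230615), the beta subunit of the channel, was at 28.4, 30.9, 33.3, 28.1 and 31.4 CPM in filtered air and at 14.7, 21.2, 19.1, 17.0 and 18.6 CPM after the aerosol. The groups were well apart, with the lowest level in aerosol replicate 1. The change was -0.75 ± 0.14 (edgeR adjusted p = 0.0157), with 0.0537 without filtered air replicate 3 and 0.0753 with the trend on span taken out.

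SPCS2 (GRCh38.p14, chromosome 11, 74949266 to 74979033), a subunit of the enzyme that cuts signal peptides, was at 24.0, 40.3, 33.6, 31.8 and 46.3 CPM in filtered air and at 17.6, 20.3, 21.1, 17.5 and 18.1 CPM after the aerosol. The filtered air libraries were widely spread and the aerosol libraries were not. The change was -0.90 ± 0.17 (edgeR adjusted p = 0.0181), with up to 0.0586 without filtered air replicate 2. A copy of the gene, SPCS2P4, held 41.7% as many counts as SPCS2 and was at 3.96 to 13.7 CPM in filtered air and at 9.86 to 16.3 CPM after the aerosol. The sources do not say how reads matching both were assigned. With the counts of both added together, an alternative chosen after seeing the data, the change was -0.53 ± 0.14 and no longer passed (edgeR adjusted p = 0.0575).

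The other subunits of the channel did not pass. The pore subunit SEC61A1 was at -0.27, with aerosol libraries from 165 to 267 CPM against 209 to 289 CPM. The gamma subunit SEC61G was at 21.2, 17.4, 17.1, 16.2 and 14.3 CPM in filtered air and at 12.9, 13.1, 12.7, 25.4 and 42.5 CPM after the aerosol. Aerosol replicates 1 to 3 were below and replicates 4 and 5 above every filtered air library, so its change was 0.31 with all libraries and -0.43 without those 2.

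SEC62 and SEC63, which serve translocation after translation and the access of BiP to the channel, were at 0.32 and 0.39. SEC63 was at 124, 127, 116, 137 and 153 CPM in filtered air and at 134, 129, 178, 198 and 223 CPM after the aerosol. Replicates 3 to 5 were above all filtered air libraries and replicates 1 and 2 within them (edgeR adjusted p = 0.186, and 0.16 for its log2 fold change without aerosol replicates 4 and 5). The subunits of the translocon-associated protein complex, SSR1 to SSR4, were at -0.11, -0.26, -0.23 and -0.59. In SSR3 all aerosol libraries, at 268 to 305 CPM, were below all filtered air libraries, at 326 to 377 CPM (edgeR adjusted p = 0.133). The signal peptidase subunits SPCS1 and SPCS3 were at 0.03 and -0.07.

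Further copies and antisense neighbours of the members held few counts beside them. Among copies, SSR4P1 held 12.8% as many counts as SSR4, PDIA3P1 4.35% as many as PDIA3 and SEC63P1 1.55% as many as SEC63, while SSR1P2, HSPA5P1, PDIA3P2, SEC63P2 and SPCS2P3 held under 1%. Among divergent and antisense transcripts, EIF2AK3-DT held 6.30% as many counts as EIF2AK3 and DNAJC3-DT 2.78% as many as DNAJC3, and ATF6-DT, CREB3L2-AS1, HSPA5-DT, MBTPS1-DT, SEC61G-DT and SEC62-AS1 held under 1%. In RefSeq 22 of the 45 members overlap another gene, CALR with MIR6515 among them, and overlapping reads cannot be told apart where strand use is unknown.

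XBP1 can be set beside the genes it is known to induce in cultured cells. Of 19 tested members of its arm (the BiP co-chaperones DNAJB9, DNAJB11 and DNAJC3, PDIA6, the EDEM and derlin genes, and the translocon, translocon-associated protein and signal peptidase subunits), 2 fell, SEC61B and SPCS2. Their median log2 fold change was -0.23, and 15 of 19 lay below 0. Among all genes averaging 10 CPM or more, 5295 of 9212 lay below 0. Of 10 tested members known mainly as ATF6 targets, leaving XBP1 aside, 3 fell, CALR, PDIA4 and CRELD2, with a median of -0.24 and 7 below 0. Of 14 members assigned to neither arm none fell in edgeR, DESeq2 or limma-voom (2 lower and 1 higher at an unadjusted p under 0.05), and their median was -0.02. Over all genes tested 1.39% fell, and of those averaging 10 CPM or more 2.85% fell, with a median of -0.07. The shares of the arms were not tested against these or each other, and the arms overlap in the literature. The arms were drawn with earlier results of these data known, so the shares cannot show a difference between them. Nor are the 14 free of the motifs, as CANX held an ERSE, and SEC62 and TXNDC5 the TGACGTG core. With the trend on span taken out the medians of the 19, 10 and 14 members were -0.07, -0.05 and 0.04.

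**Figure D3:**
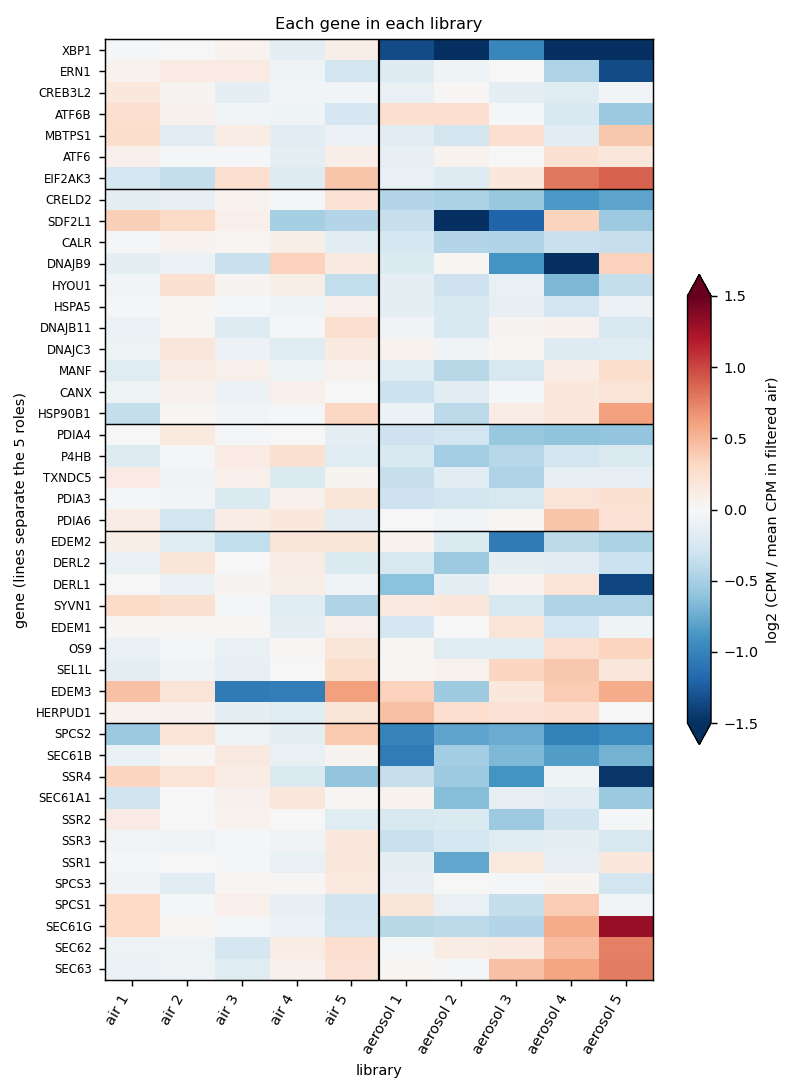
Each row is a gene and each column a library, and colour gives log2 of its CPM over the mean CPM in filtered air, with values beyond 1.5 in either direction drawn at the end colours. The XBP1 row is blue in all 5 aerosol columns. EIF2AK3, SEC61G and SEC62 are red mainly in aerosol replicates 4 and 5, and SEC63 in aerosol replicates 3 to 5. EIF2AK3 is also red in filtered air replicate 5.

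The members varied more between aerosol libraries than between filtered air libraries. The median coefficient of variation over the 44 genes was 10.9% in filtered air and 15.6% after the aerosol, and 10.4% over aerosol replicates 1 to 3. Over genes averaging 10 CPM or more the same values were 13.2, 19.9 and 12.1%. Aerosol replicate 5 was the highest of its group in 16 of the 44 genes and replicate 4 in 11, while filtered air replicate 5 was the highest of its group in 20 and replicate 1 in 10. Aerosol replicates 4 and 5 stood apart in composition. Genes of the mitochondrial genome took 18.1 and 19.5% of the counts in these 2 libraries, against 12.4 to 14.5% in aerosol replicates 1 to 3 and 7.75 to 10.3% in filtered air. The nuclear RNA MALAT1 took 1.46 and 3.81%, against 0.784 to 1.05% and 0.291 to 0.390%. Of 8 fibroblast markers 1 passed, FAP, which rose by 0.63 on the log2 scale (edgeR adjusted p = 0.0342). The others did not pass and went both ways. COL1A1, COL1A2, THY1 and DCN were at -0.22, -0.24, -0.45 and -0.69, and COL3A1, LUM and PDGFRA at 0.11, 0.30 and 0.37. Of 4 epithelial markers 1 passed, the keratin KRT18, which fell by 0.67 (edgeR adjusted p = 0.0136), and 0 of the cardiomyocyte markers passed edgeR. The part of these shifts in the results was not tested, beyond the values without both libraries.

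**Figure D4:**
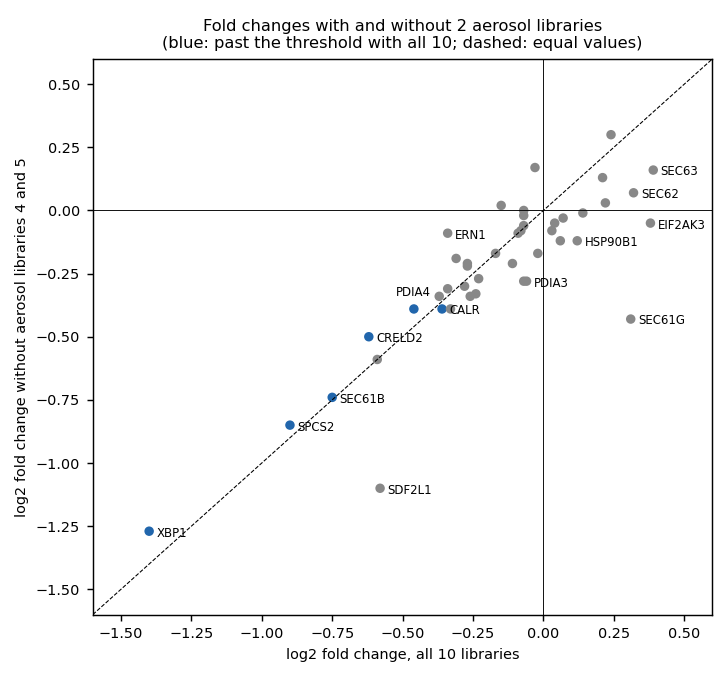
The log2 fold change of each gene with all 10 libraries (horizontal) is set against the value without aerosol replicates 4 and 5 (vertical), and the dashed line marks equal values. The genes that fell lie near the line, while SEC61G (0.31 against -0.43), EIF2AK3 (0.38 against -0.05) and HSP90B1 (0.12 against -0.12) lie below it.

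Without aerosol replicates 4 and 5 the members that fell were CALR, SEC61B and XBP1, 3 instead of 6, and none rose. The adjusted p of SPCS2, PDIA4 and CRELD2 was then 0.0560, 0.0604 and 0.109, with log2 fold changes of -0.85, -0.39 and -0.50. The 45 genes together took 0.964 to 1.01% of all counts in filtered air and 0.827 to 0.879% after the aerosol. With the counts of the mitochondrial genome left out of the total, these shares were 1.06 to 1.11% and 0.954 to 1.03%, which still do not overlap. Such a sum is weighted towards the genes with most counts and does not describe the typical member. The median log2 fold change over the tested members was -0.10.

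The wider secretory pathway was described with 131 other genes, listed by role. Of these 9 fell (6.87%) and none rose in edgeR, with a median log2 fold change of -0.21 and 96 below 0. Among all genes averaging 10 CPM or more, 5295 of 9212 lay below 0. DESeq2 gave 18 lower and 1 higher, limma-voom 10 and 0, and at an unadjusted p under 0.05 44 were lower and 2 higher. The shares over all genes given above for each of these rules apply here as well. The 9 genes that fell in edgeR lay in the lists of folding, insertion, degradation, export and IRE1 partners.

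Oxidative folding and proline isomerisation held 4 of the 9 genes, out of 19 listed (21.1%). Among genes averaging 10 CPM or more 2.85% fell. The lists were chosen with earlier results of these data known, and this difference was not tested. PPIB, the ER cyclophilin that acts on collagen, went from 195 ± 16.6 to 110 ± 17.5 CPM (n = 5 per group), or -0.82 ± 0.12 on the log2 scale (edgeR adjusted p = 0.00536), which held without any single library. PDIA5, a further disulfide isomerase, went from 14.8 to 7.36 CPM. PRDX4, the ER peroxiredoxin, changed by -0.94 on the log2 scale, and FKBP9, a prolyl isomerase, by -0.59. The calls of these 3 were lost without single libraries, with an adjusted p of up to 0.100, that of PDIA5 without filtered air replicate 4.

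RTCB, the ligase that joins the ends of XBP1 mRNA after IRE1 has cut it, fell as well, from 99.4 ± 6.51 to 75.7 ± 5.16 CPM (n = 5 per group). Its change was -0.39 ± 0.09 (edgeR adjusted p = 0.0421), and 9 of 10 fits without a library lost the call, with up to 0.119 without filtered air replicate 2. VCP, the ATPase that pulls proteins out of the ER membrane, fell by 0.45 on the log2 scale. RPN1, an oligosaccharyltransferase subunit next to the translocon, fell by 0.36, EMC8 of the membrane insertase by 0.58 and TMED9, a cargo receptor of vesicle traffic, by 0.70. The calls of VCP, RPN1 and EMC8 were lost without single libraries, with up to 0.111 for EMC8 without filtered air replicate 2, and that of TMED9 was not (at most 0.0466).

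**Figure D5:**
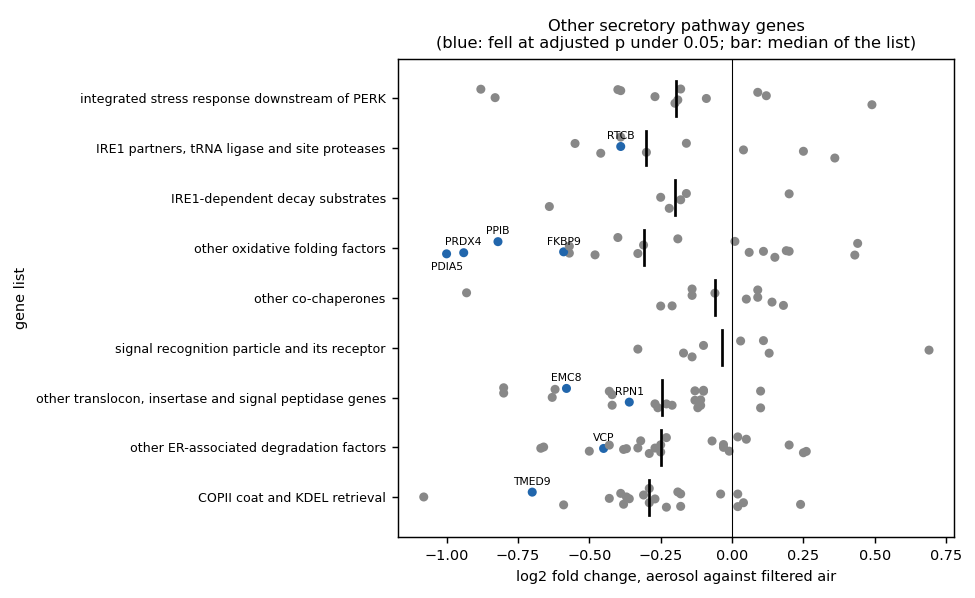
The log2 fold change of each of 131 other secretory pathway genes is drawn by list, with the list's median as a bar and vertical scatter only to separate points. The 9 blue genes fell, and the medians of all 9 lists lie below 0, between -0.31 and -0.03.

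Downstream of PERK no gene of 12 passed in edgeR or limma-voom, and at an unadjusted p under 0.05 2 were lower and 1 higher. The stress-induced genes TRIB3 and DDIT4, named after their values were seen, had the lowest values, -0.88 ± 0.41 and -0.83 ± 0.32 (edgeR adjusted p = 0.283 and 0.181), and DDIT4 was below all filtered air libraries in 4 of 5 aerosol libraries. ATF4, the translated regulator, was at -0.18 and DDIT3, which encodes the pro-apoptotic factor CHOP, was low and at 0.09 (5.76 CPM in filtered air and 6.13 CPM after the aerosol). PPP1R15A, the phosphatase subunit that reverses PERK signalling, was at 160, 174, 143, 161 and 125 CPM in filtered air and at 181, 189, 201, 231 and 274 CPM after the aerosol. Every aerosol library was above every filtered air library, with replicates 4 and 5 highest. Its change of 0.49 ± 0.13 missed the threshold in edgeR (adjusted p = 0.0578) and passed in DESeq2 (adjusted p = 0.0148).

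Of 6 transcripts known in mouse fibroblasts as substrates that IRE1 degrades, none passed in edgeR or limma-voom, and DESeq2 gave 1 lower, COL6A1, a collagen VI chain (-0.64 ± 0.17, edgeR adjusted p = 0.0675). SPARC, a matrix glycoprotein, was at -0.25 and BLOC1S1, the most studied substrate, at -0.22. None of 11 other co-chaperones passed in edgeR, DESeq2 or limma-voom or at an unadjusted p under 0.05, and UGGT1, the folding sensor for glycoproteins, and DNAJC10, a reductase of the J-domain family, were at 0.09 and 0.18. Of 8 genes of the signal recognition particle and its receptor none passed in edgeR or limma-voom and 1 was lower in DESeq2. The subunits SRP9 and SRP72 were at -0.10 and 0.13.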

How the data were processed

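The deposited tables give the authors' raw count per gene for 10 mRNA libraries of AC16 cells, 5 per group. Per the labels' protocols, TRIzol was used for total RNA and a SMARTER mRNA kit for the libraries. Per the submitters' processing notes, HISAT, featureCounts 1.5.0-p3, DESeq 1.8.3 and build hg38 were used. Strand use, annotation release and the handling of multiply mapped reads are unknown here, so reads of overlapping genes, antisense genes and copies cannot be told apart. Titles gave each library's group and replicate number. The 10 miRNA libraries were not analysed here.

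Symbols were matched by Ensembl identifier for 58207 of 58735 rows. RefSeq positions (GRCh38.p14) were matched by symbol. edgeR 4.0.16 (R 4.3.3) with TMM scaling and filterByExpr tested 20166 genes with a robust quasi-likelihood F test on the group, adjusted by Benjamini-Hochberg over all of them (threshold 0.05). The script was tested on simulated data. CPM uses TMM-scaled library sizes. No 2 libraries agreed within sampling noise (lowest chi-square per degree of freedom 59).

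The genes, lists, arms and promoter motifs were chosen with earlier results of these data known. All 45 members are accounted for. Other genes were named where they passed, or, in a list with none, as the 2 highest by CPM, because no exon lengths were at hand. DDIT3 and BLOC1S1 (for their role) and TRIB3 and DDIT4 (for their low values), outside this rule, were named after their values were seen. Protein sequences were not used. Promoters came from the RefSeq table, and 80-base windows of members that did not pass were added for comparison. Alternatives used RLE, upper-quartile and library-size scaling, DESeq2 1.42.0, limma-voom (limma 3.58.1), 2 other filters, the replicate number as a block, each library left out, aerosol replicates 4 and 5 left out, and a lowess trend on genomic span removed per library.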

Additional observations from a re-analysis of the deposited data

Results flagged for a closer look

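Among the 44 tested members and 17 other named genes, the 5 libraries of each group were checked for a single value far from the rest, and 2 of 122 sets were found, where chance gives about 1 in 20. SSR3, a subunit of the translocon-associated protein complex, was at 377 CPM in filtered air replicate 5 and at 326 to 331 CPM in the other filtered air libraries. SRP9, a subunit of the signal recognition particle, was at 290 CPM in filtered air replicate 5 and at 198 to 223 CPM in the others.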

How the results depend on the processing

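XBP1 stayed lower and past the threshold under all 20 other settings. Without single libraries the members that fell numbered 1 to 6, all genes changed 183 to 757, and other secretory genes that fell 2 to 11, with 0 to 1 that rose. Without filtered air replicate 3 only XBP1 was left. The members that fell were 3 without aerosol replicates 4 and 5, 3 with the trend on span taken out and 1 at an adjusted p under 0.01. Over all genes these last 2 settings gave 339 and 87 changed genes, DESeq2 gave 1944, and the main test 608. Upper-quartile scaling moved the split over all genes from 327 higher and 281 lower to 482 and 171, and left 4 members lower. Other secretory genes that fell were 18 by DESeq2, 3 with that trend taken out and 1 at 0.01, and 1 rose under upper-quartile scaling, under DESeq2, with a filter of 1 CPM in 5 libraries and with that trend taken out. The replicate number did not pair the libraries (correlation of same-numbered deviations 0.00781 to 0.0529), and with it as a block 450 genes changed and 4 members fell, without CALR and CRELD2. Signs of uncalled genes turned by more than a standard error in 18 cases. With the trend on span taken out ATF6B was at 0.14, HSPA5 at 0.04, DNAJB11 at 0.08, MANF at 0.12, SYVN1 at 0.06, SPCS3 at 0.11 and SRP9 at 0.09. Without aerosol replicates 4 and 5 ATF6 was at -0.03, ATF6B at 0.17, EIF2AK3 at -0.05, HSP90B1 at -0.12, PDIA6 at -0.01, OS9 at -0.12, SEC61G at -0.43 and SRP72 at -0.18. With library size alone ATF6 was at -0.04 and UGGT1 at -0.01. SEC61G ranged from -0.11 to 0.44 without single libraries. A further 43 sign changes were within a standard error. The cause was not tested.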
